A study of Sus scrofa with 15 samples.

Results

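The backfat of Landrace pigs, a lean breed, was set against that of Taihu pigs, a fat breed, at months 3 and 4. The comparison rests on the 2 arrays, of 15 in the series, whose titles name both breeds and the same month, 3 against 3 or 4 against 4. On both, Landrace RNA carried the dye Cy3 and Taihu RNA the dye Cy5. The series is a two-colour microarray study of 10 RNA samples of pig (Sus scrofa) backfat, 1 for each breed at each of 5 months. The other 13 arrays are the breed arrays of months 1, 2 and 5 and 5 arrays per breed that join the months in a closed loop. The groups used are thus Landrace month 3, Landrace month 4, Taihu month 3 and Taihu month 4, with 1 RNA sample each. The labels name no treatment, sex or genotype other than the breed, and the number of animals behind an RNA sample is not stated.

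Backfat is the subcutaneous fat layer of the back, and its thickness is the usual measure of fatness in pig breeding. Adipocytes fill as fatty acids are taken up or made and stored as triglyceride, and empty as lipases release them. Whole fat tissue also holds vessels, stroma and immune cells, so fewer cells of a type and less RNA per cell cannot be told apart in these samples. The files identify a spot by its place in the print (Sr01R05C07 is row of blocks 1, printed row 5, column 7) and hold no gene name, and no table at hand links a code to a gene. The labelled tissue could therefore not be checked against marker genes, the gene lists on fat metabolism were not run, and no role can be given to a position. At most 2 positions per direction are named in each comparison.

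Each array holds 140 distinct positions outside the first 12 of every block, and each position is printed in 4 copies. Median intensity over background was 2212 in Landrace and 2125 in Taihu at month 3, and 2131 in Landrace and 1937 in Taihu at month 4. The log2 ratio of the copies of a position had a median SD of 0.04 at month 3 and 0.07 at month 4, against 0.04 to 0.14 over the 15 arrays. Of 560 spots, 21 at month 3 and 19 at month 4 had a median pixel at the scanner's ceiling in at least 1 channel. A value was available on every array at 138 positions, and in both channels of both arrays all copies of these exceeded background by 2 or more of its SDs. Differences below are log2 Landrace minus Taihu after centring each array on its median position and subtracting the dye effect. The dye effect of a position is the mean log ratio of the 10 loop arrays, in which the months cancel.

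The breed difference that months 3 and 4 share ran one way among the positions past the threshold. At 13 of 138 positions (9.42%) expression was higher in Landrace, by a median of 5.49-fold and a range of 2.18-fold to 11.2-fold, and at 0 positions it was higher in Taihu (limma, Benjamini-Hochberg adjusted p under 0.05, two-sided). Without adjustment for the number of positions, 26 had a p under 0.05 (18.8%), of which 23 were higher (16.7%) and 3 lower (2.17%) in Landrace. The 13 stood apart from the rest. The last position inside the threshold had limma's adjusted p = 0.0141 and the next one outside 0.176, and the other 125 positions lay between log2 -0.63 and 0.69. At 113 of those 125 the shared difference was under 0.5 in size. The 13 positions held 85.8% of the sum of squared differences over all 138. The error of the test is the disagreement of the 2 months and of the 2 loops (2 residual degrees of freedom, moderated over all positions). Nothing says that the RNA samples of 1 breed came from separate animals, so the spread between animals may not be in it. With 1 RNA sample per breed and month, a breed difference cannot be told apart from a difference between the animals sampled.

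**Figure D1:**
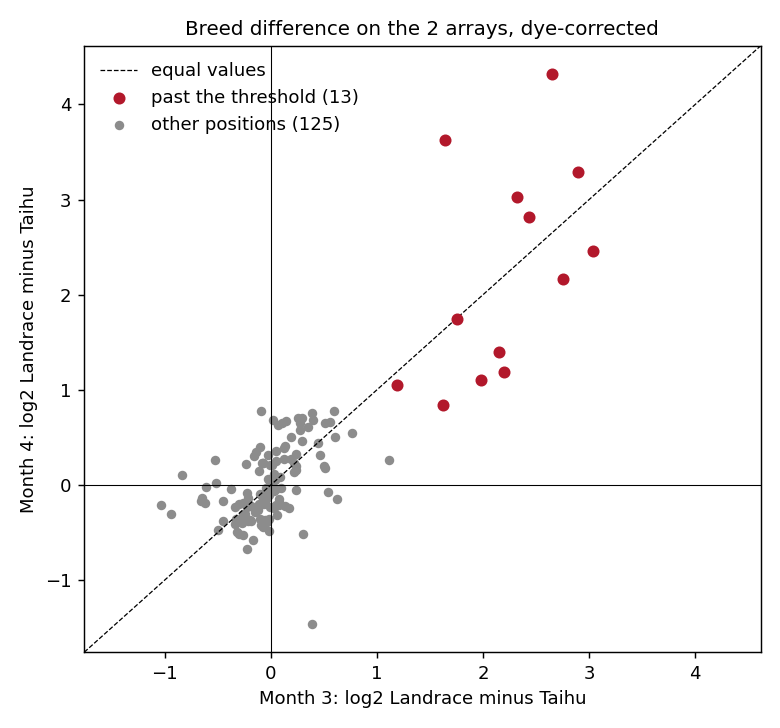
Breed difference at month 3 (horizontal axis) and month 4 (vertical axis), in log2 Landrace minus Taihu after dye correction, with 1 point per position. The 13 positions past the threshold (red) span 1.19 to 3.03 at month 3 and 0.85 to 4.31 at month 4, and the dashed line marks equal values.

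Both arrays showed the excess at each of the 13. At month 3 their differences were log2 1.19 to 3.03 (median 2.19) and at month 4 log2 0.85 to 4.31 (median 2.16), while the medians of the other 125 positions were -0.03 and -0.08. In plain intensity, Landrace was brighter than Taihu on both arrays at 13 of the 13, against 46 of all 138. The 13 were chosen by the values of these same arrays, so this is a description and no test. At month 3 the 13 spanned 1559 to 65328 (median 16018) in Landrace and 485 to 40450 (median 3696) in Taihu. At month 4 they spanned 663 to 53635 (median 5149) in Landrace and 389 to 15319 (median 1340) in Taihu. Over all 138 positions, 12 were above log2 1 on both arrays and 0 were below log2 -1 on both. The sign was the same on both arrays at 104 positions, with Landrace higher at 51 and Taihu higher at 53. The values of the 2 arrays correlated across the 125 other positions with r = 0.45 (rank correlation 0.54), and across all 138 before the dye correction with r = 0.78 (rank correlation 0.68). These correlations describe positions of the same 2 arrays, which share the breed of each dye and hence the dye effect, or its estimate.

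Sr01R05C07 had the largest shared difference. Its mean intensity was 24617 in Landrace and 6037 in Taihu at month 3, and 34203 in Landrace and 2731 in Taihu at month 4. The 4 copies spanned 18113 to 37505 in Landrace and 4741 to 8540 in Taihu at month 3, and 31312 to 35751 in Landrace and 2656 to 2868 in Taihu at month 4, so that no Taihu copy reached the lowest Landrace copy. The differences were log2 2.65 at month 3 and 4.31 at month 4, and their mean of 3.48 (SE 0.59, limma's adjusted p = 0.00579) is 11.2-fold. The 4 copies taken one at a time gave 3.37 to 3.64. No copy was at the ceiling on these 2 arrays, but 26 of its 60 spots over all arrays were, which touches the dye effect of -0.62. The Landrace loop put that effect at -0.08 and the Taihu loop at -1.17. The call ended under loess normalization (adjusted p = 0.0740, log2 3.05), under loess with normexp background (0.0751, log2 3.03), with the deposited value table (0.0519, log2 4.31) and without the dye correction (0.150, log2 2.86).

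Sr01R06C02 was the other of the pair. Its mean intensity was 46333 in Landrace and 10126 in Taihu at month 3, and 12214 in Landrace and 2030 in Taihu at month 4. Both breeds were thus brighter at month 3, while the ratio changed little. The differences were log2 2.89 and 3.29 at months 3 and 4, with a mean of 3.09 (SE 0.36, limma's adjusted p = 0.000695), which is 8.51-fold. Over all arrays 22 of its 60 spots were at the ceiling, none of them on these 2. Among the alternatives that gave it a value, the call ended only without the dye correction (adjusted p = 0.150, log2 2.44).

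In the other direction no position passed, and those named have the smallest p among positions lower in Landrace. Sr02R05C02 had mean intensities of 1249 in Landrace and 3034 in Taihu at month 3, and 1630 in Landrace and 2534 in Taihu at month 4. Its mean difference was log2 -0.62 (SE 0.25, limma's adjusted p = 0.245), made up of -0.93 at month 3 and -0.30 at month 4. Copies differed at month 3, where they spanned 582 to 1634 in Landrace and 1302 to 4079 in Taihu. Sr02R03C07 had mean intensities of 560 in Landrace and 880 in Taihu at month 3, and 678 in Landrace and 1061 in Taihu at month 4. Its differences were log2 -0.49 and -0.47 at months 3 and 4, with a mean of -0.48 (SE 0.20, adjusted p = 0.245), and every Taihu copy was brighter than every Landrace copy of the same array. A fit with 1 level per RNA sample, which uses all 15 arrays and takes its error from arrays alone, gave 25 positions, 20 higher and 5 lower in Landrace. The 5 lay between log2 -0.76 and -0.32, and Sr02R05C02 was among them (-0.76, adjusted p = 0.0226).

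**Figure D2:**
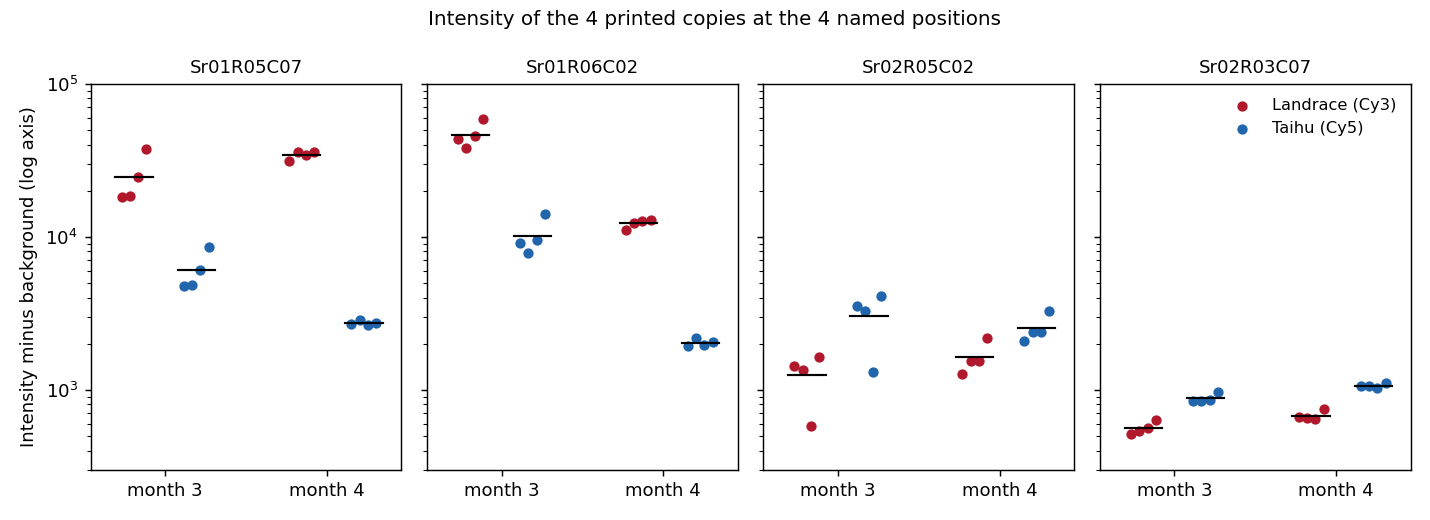
Intensity minus local background, on a log axis, of each printed copy at the 4 named positions, with Landrace (Cy3, red) left of Taihu (Cy5, blue) at month 3 and month 4. Bars mark the mean of the copies. Landrace is brighter at Sr01R05C07 and Sr01R06C02, and Taihu is brighter on average at Sr02R05C02 and Sr02R03C07.

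The 13 positions were not spread evenly over the print. Of the 13, 12 lay in printed rows 5 to 7, which hold 52 of the 138 tested positions. In row 6 alone, which holds 18 tested positions, lay 7. Both rows of blocks held some of them, 8 and 5. A neighbour from the same list lay in the next column for 8 of the 13, which follows in part from the crowding in row 6. What the printed order follows is not stated. By mean intensity over the 4 channels, 1 of the 46 dimmest positions, 7 of the next 46 and 5 of the 46 brightest were among them. Only 1 of the 13 had copies at the ceiling on these arrays, in Landrace at month 3, against 5 of the other 125. On the loop arrays, which supply the dye effect, 10 of the 13 had a copy at the ceiling. The dye effect was below 0 at each of the 13 (-0.91 to -0.11, median -0.32), and at 86 of all 138, so that the correction raised every one of the 13 differences. Before it, their mean log2 ratio over both arrays was 0.88 to 2.86 (median 1.73) and above 0 on both arrays at 13 of 13. The Landrace loop alone gave a median dye effect of -0.10 at these positions and the Taihu loop alone -0.54. With the Landrace loop alone 9 of the 13 kept their call and with the Taihu loop alone 12. Without any dye term, where the effect stays in the residual, 1 did.

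Positions 8 to 11 of each block, which are dim and printed alike in all blocks, gave a level for weak signal. Their median intensity was 1243 in Landrace and 980 in Taihu at month 3, and 1369 in Landrace and 1323 in Taihu at month 4. Of the 138 positions, 78 were above this level in all 4 channels and 35 were below it in all 4. Of the 13, 7 were above it in all 4 channels, and the other 6 were at or under it in Taihu at month 3 or 4. With this level subtracted from each channel, a step added after seeing the data, 52 positions had a value on every array. Of these, 9 passed the threshold, 5 higher and 4 lower in Landrace, and the 2 of the 13 that could still be tested kept their call.

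Leaving out the array of month 3 gave 10 positions, 9 higher and 1 lower in Landrace, and leaving out that of month 4 gave 12, all higher. Of the 13, 9 and 12 were among these. Each of these fits takes the lone array to vary like the loops. Without the spots at the ceiling on any array, 124 positions could be tested and 5 passed, all higher in Landrace, and these were the 5 of the 13 that still had a value. Under loess normalization 5 passed, all among the 13.

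On the breed arrays of the other months the 13 positions had smaller differences at months 2 and 5. They were chosen by their values at months 3 and 4, so a lower value elsewhere is a description and no test. At month 1 their breed difference was log2 0.40 to 3.51 (median 1.64) and above 0 at 13 of 13, against 61 of all 138. At month 2 it was -2.39 to 1.16 (median -0.38) and above 0 at 6 of 13, against 67 of all 138. At month 5 it was -2.23 to 0.59 (median -0.51) and above 0 at 4 of 13, against 80 of all 138. The value was below those of both month 3 and month 4 at 8 of the 13 at month 1, 13 at month 2 and 13 at month 5, against 53, 58 and 57 of all 138. Copies at the ceiling, where a ratio is only bounded, occurred at 3 of the 13 at month 1, 6 at month 2 and 1 at month 5. Their part in the smaller differences was not tested. Over all 138 positions, the median differences were -0.04, -0.01 and 0.05 at months 1, 2 and 5. The same dye estimate enters every month.

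**Figure D3:**
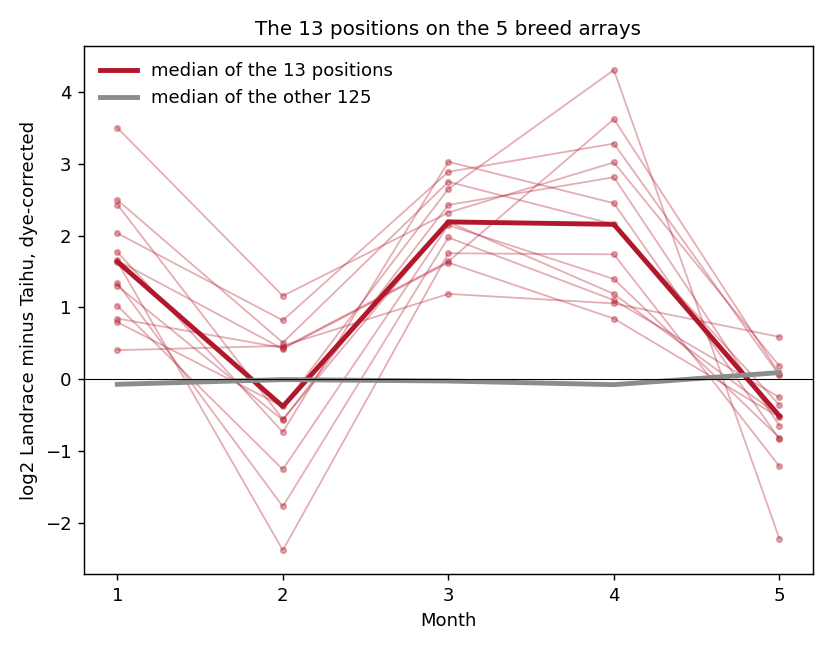
Breed difference of the 13 positions on the 5 breed arrays, in log2 Landrace minus Taihu after dye correction, by month. Thin lines are positions, the thick red line is their median (1.64, -0.38, 2.19, 2.16 and -0.51 from month 1 to 5) and the grey line is the median of the other 125 positions.

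The test of months 3 and 4 against months 1, 2 and 5, in which the dye effect cancels, found 0 of 140 positions (0%) past the threshold (limma). The lowest adjusted p was 0.372, and before adjustment 10 positions (7.14%) were under 0.05, 8 of them higher (5.71%) and 2 lower (1.43%) at months 3 and 4. Sr01R05C07 differed by log2 4.09 (SE 0.96, adjusted p = 0.372), with 2.65 and 4.31 at months 3 and 4 and 0.79, -0.38 and -2.23 at months 1, 2 and 5. All 4 of its Landrace copies at month 1 and all 4 of its Taihu copies at month 2 were at the ceiling, so the values of those months are not exact, and without ceiling spots it could not be tested. Sr02R05C07 differed by log2 2.60 (SE 0.64, adjusted p = 0.372), with 2.43 and 2.82 at months 3 and 4 and 1.30, -0.57 and -0.65 at months 1, 2 and 5. In the other direction, Sr01R03C02 differed by log2 -0.79 (SE 0.22, adjusted p = 0.372) and Sr02R03C07 by -0.52 (SE 0.20, adjusted p = 0.661). At Sr01R03C02 the difference was -0.22 and -0.23 at months 3 and 4, and 0.71, 0.36 and 0.61 at months 1, 2 and 5. The result depended on month 1. Without its array 8 positions passed, all higher at months 3 and 4, among them Sr02R05C07 (log2 3.23, adjusted p = 0.00463) and Sr01R05C07 (log2 4.79, adjusted p = 0.0408). With the error between arrays alone, in the fit with 1 level per RNA sample, 27 passed, 23 higher and 4 lower.

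The loop arrays compare neighbouring months within a breed. From month 2 to month 3 the 13 positions changed in Landrace by log2 -1.47 to 0.77 (median -0.42), and in Taihu by -4.54 to 0.20 (median -3.33). In Landrace 0 of the 13 were below -2 on that array, and in Taihu 12 were, as were 14 of all 138 positions. Of the 15 arrays, this Taihu array had the highest median copy SD (0.14), the most marked spots (9) and the lowest median Cy5 intensity (637). The Landrace step was above the Taihu step at 13 of the 13, against 68 of all 138. From month 4 to month 5 the median change was -0.34 in Landrace and 0.47 in Taihu, and the Landrace step was below the Taihu step at 11 of the 13, against 70 of all 138. The 10 loop arrays also supply the dye effect that was subtracted. Copies at the ceiling occurred at 5 of the 13 on the Landrace array of months 3 and 2 and at 3 on the Taihu one. On the arrays of months 5 and 4 they occurred at 0 of the 13 in Landrace and at 10 in Taihu. On that Taihu array Cy5 carried the month 4 RNA. All 4 Cy5 copies were at the ceiling at Sr01R05C07, Sr01R06C02, Sr02R05C07 and Sr02R06C05, and none at Sr01R06C01. The same RNA and dye gave mean intensities of 2731, 2030, 1371 and 10335 at those 4 on the breed array of month 4. Median Cy5 intensity was 1751 on the loop array and 1937 on the breed array. The cause of this conflict was not tested. These array values carry no replicate and no test.

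Fitted levels from all 15 arrays, relative to the mean of the 10 RNA samples, place each breed on 1 scale per position. The median of the 13 in Landrace was 1.78, 1.50, 0.71, -0.15 and -1.01 from month 1 to month 5. In Taihu it was 0.16, 2.00, -1.36, -1.93 and -0.99. The Taihu arrays of months 3 and 2 and of months 5 and 4, with the limits given above, both enter this fit. At month 3 the 13 positions ran over 0.01 to 1.73 in Landrace and -2.14 to -0.47 in Taihu, and at month 4 over -0.62 to 0.87 in Landrace and -3.33 to -0.28 in Taihu. The fit includes the 2 arrays by which the 13 were chosen, so the breed order at months 3 and 4 follows from that choice. At Sr01R05C07 the Landrace levels were 1.78, 1.51, 0.45, 0.87 and -2.03 from month 1 to month 5, and the Taihu levels 0.93, 2.07, -2.05, -2.81 and -0.72. At months 2 and 5 Taihu was the higher breed there, at months 1, 3 and 4 Landrace.

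**Figure D4:**
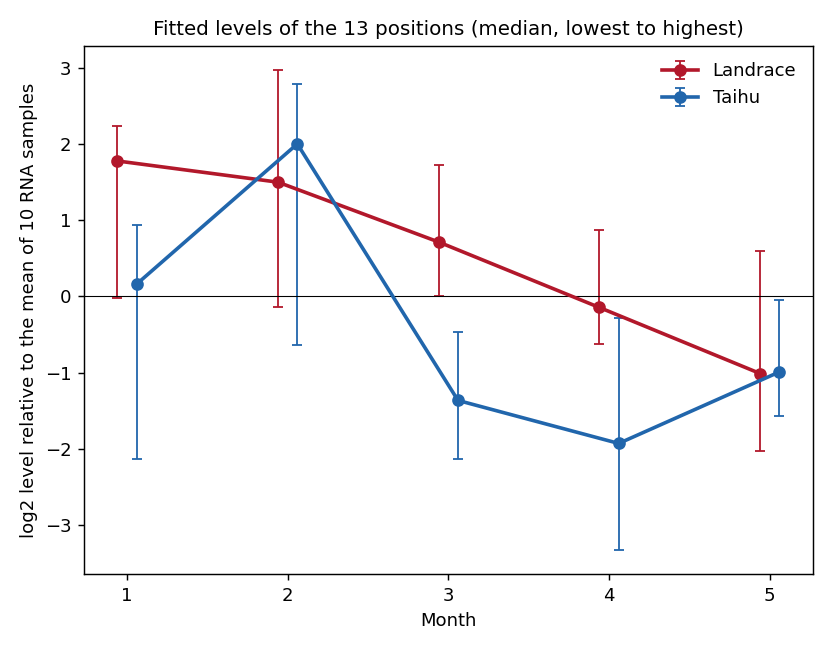
Fitted log2 level of the 13 positions in each RNA sample, relative to the mean of the 10 RNA samples, by month, for Landrace (red) and Taihu (blue). Points are medians over the 13 positions and bars run from the lowest to the highest position. The Landrace median declines at every month, and the Taihu median is 2.00 at month 2 and -1.36 at month 3.

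The RNA samples of months 3 and 4 were also read on arrays other than the 2 breed arrays. Without those 2 arrays, the loops and the breed arrays of months 1, 2 and 5 gave another estimate of this breed difference. That route shares the RNA samples and the dye estimate. At the 13 positions its value was log2 -0.17 to 2.68 and above 0 at 12, against 57 of all 138 positions. Its median at the 13 was 1.50, against 2.46 on the 2 breed arrays by which they were chosen. In this longer route 0 of 138 positions (0%) passed the threshold (limma), where the lowest adjusted p was 0.110. Before adjustment 24 positions (17.4%) were under 0.05, 16 higher (11.6%) and 8 lower (5.8%) in Landrace, and 9 of the 13 were among them. Sr02R06C05 had the lowest p, at log2 1.24 (SE 0.21, adjusted p = 0.110), against 1.24 on the 2 breed arrays. Of its 60 spots over all arrays 8 were at the ceiling, all on other arrays than these 2. Without ceiling spots it could not be tested, and under loess the value was 0.76. It passed the threshold in 2 alternatives only. These were centring on the first 12 positions (log2 1.42, limma's adjusted p = 0.0480) and subtracting the level of positions 8 to 11 (log2 1.66, adjusted p = 0.0108). Sr01R06C01 was measured at log2 0.88 (SE 0.20, adjusted p = 0.168), against 1.12 on the breed arrays, and passed only with that level subtracted (log2 1.32, limma's adjusted p = 0.00687). In the other direction, Sr02R05C02 was measured at log2 -1.14 (SE 0.27, adjusted p = 0.168), against -0.62 on the breed arrays. It passed only under loess (log2 -1.29, limma's adjusted p = 0.0319) and under normexp with loess (log2 -1.27, adjusted p = 0.0264). Sr01R02C04 was measured at log2 -0.67 (SE 0.20, adjusted p = 0.183), against -0.08. The value of -0.67 moved to -0.32 with normexp, -0.25 with loess and -1.19 without the dye term. Sr01R02C04 was also far below the level of positions 8 to 11. Its intensities were 234 in Landrace and 333 in Taihu at month 3, and 180 in Landrace and 311 in Taihu at month 4.

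**Figure D5:**
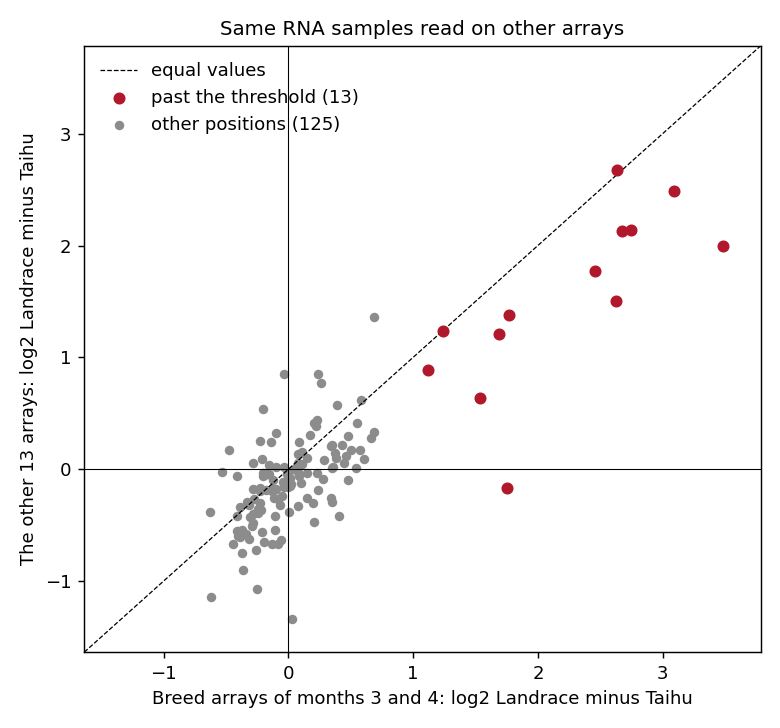
Shared breed difference of months 3 and 4 from their 2 breed arrays (horizontal axis) and from the other 13 arrays (vertical axis), in log2 Landrace minus Taihu, with 1 point per position. Of the 13 positions past the threshold on the breed arrays (red), 12 lie above 0 on the other arrays, and the dashed line marks equal values.

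The breed difference itself changed between the months at 4 positions. The test of month 4 minus month 3, fitted with 1 level per RNA sample, found 4 of 138 positions (2.9%), 1 with a larger (0.725%) and 3 with a smaller (2.17%) Landrace minus Taihu value at month 4 (limma, adjusted p under 0.05, error between arrays only). Before adjustment 15 were under 0.05 (10.9%), 6 larger (4.35%) and 9 smaller (6.52%). Sr02R06C05, one of the 13, was measured at log2 0.85 at month 4 and 1.63 at month 3, a fitted change of -0.98 (SE 0.14, adjusted p = 0.0155). Its intensity was 16235 in Landrace and 10335 in Taihu at month 4, and 35522 in Landrace and 13020 in Taihu at month 3. Sr01R08C02 was measured at log2 -0.51 at month 4 and 0.30 at month 3, a fitted change of -0.91 (SE 0.17, adjusted p = 0.0286), so that the higher breed differed between the months. Sr01R04C03 went the other way, with log2 0.78 at month 4 and -0.09 at month 3, a fitted change of 0.72 (SE 0.14, adjusted p = 0.0299). Sr01R04C06 had the next smallest p among larger values, at log2 0.59 (SE 0.18, adjusted p = 0.257). Each of the 4 calls ended when any 1 of the 4 arrays of months 3 and 4 was left out (0 positions, 9 to 13 with an unadjusted p under 0.05), and without the dye term. Over those single-array fits the estimates were -1.08 to -0.97 for Sr02R06C05, -1.07 to -0.84 for Sr01R08C02 and 0.61 to 0.73 for Sr01R04C03. These fits share most of their arrays, and leaving out either loop array gave the same estimates by design. The dye term cancels in this change, so the estimates without it had to be the same.

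The loop and breed arrays enter that fit together, so a like value from both at the called positions follows from the call and supports nothing. The step from month 3 to 4 at Sr02R06C05 was log2 -0.87 in Landrace and 0.11 in Taihu, a difference of -0.99, against -0.78 between the breed arrays. At Sr01R08C02 the loop arrays differed by -0.84 and the breed arrays by -0.81, and at Sr01R04C03 by 0.70 and 0.87. Across all 138 positions, the 4 arrays of months 3 and 4 should add to 0 apart from error, and the root mean square of the sum was log2 0.28. It was over 1 at 1 position, which was not among the 13. There the breed arrays gave -1.84 between months 4 and 3 and the loop arrays -0.59. The root mean square of the shared difference was log2 0.77, and that of the difference between months 4 and 3 was 0.46.

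The authors' deposited table of log ratios has no probe column, and its rows were matched to spots by print order. In that table, 12 of the 13 positions had a value at month 3 and 7 at month 4, and every one of these values was above 0. The table covers the same 2 arrays by which the 13 were chosen, so the sign follows from that choice and is no separate support. The values of the 13 in it were 0.45 to 4.67 (median 2.50) at month 3 and 0.70 to 4.59 (median 3.43) at month 4, with no dye correction. For Sr01R05C07 the authors' deposited table gave 2.12 at month 3 and 4.18 at month 4, and for Sr01R06C02 it gave 2.38 and 3.43. Sr02R05C02 was at -2.67 and -1.65 in the authors' deposited table. Put through the same fit, that table gave 1 position past the threshold of the 61 with a value on every array, and 3 of the 13 could be tested in it.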

How the data were processed

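Per the labels' protocols, backfat was kept in RNAlater, and its RNA went through linear amplification before dye labelling. The deposited scanner files give each spot's linear intensity and local background, without normalization, from image software 5.1 with fixed circles, per the file headers. The hybridisation and scanner are not given in the sources used here. The deposited value table holds log2 ratios of Cy3 over Cy5 for each spot. Its scale and direction were found from the scanner files: with blocks taken column by column, r was 0.74 to 0.91 per array (0.36 to 0.59 in file order). Its centring and background step stay unknown. Column medians were -0.29 to 0.15, and the first 12 positions of every block are blank.

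Here, signal mean minus background median was taken as log2(Cy3/Cy5). Marked spots, values at or below background and the first 12 positions of each block were left out, and each array was centred on the median position. The 4 copies were averaged. What the first 12 positions hold is not stated, and taking them for shared or control spots is an assumption. Limma 3.58.1 in R 4.3.3 fitted the shared breed term with a dye term, free month terms per loop and own terms for the breed arrays of months 1, 2 and 5. The other fits are described with their results. P-values were Benjamini-Hochberg adjusted over all positions tested, with a threshold of 0.05. Each breed and month has 1 RNA sample, so p-values cover the spread between these samples and arrays, which may be technical. The number of arrays limits the precision.

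Named positions are, per comparison and direction, the 2 largest past the threshold (with 1 sign on both arrays for the shared difference), filled up by the smallest p. The members, lists and tests were chosen with earlier results of these data known. Alternatives were background, normalization, centring, ceiling spots, copies, dim positions, the deposited table, the dye estimate, the design and single arrays.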

Additional observations from a re-analysis of the deposited data

Results flagged for a closer look

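The breed difference changed between months 3 and 4, by the test of the difference itself, at 4 positions (limma, adjusted p under 0.05, error between arrays only). Among them the fitted change, month 4 minus month 3, was log2 0.72 at Sr01R04C03, -0.98 at Sr02R06C05 and -0.91 at Sr01R08C02. With 1 RNA sample per breed and month, a change with the month cannot be told apart from a difference between the animals behind the samples.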

How the results depend on the processing

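No named position changed its direction under any alternative that gave it a value. Of their values, 163 stayed on their side of the threshold, 22 lost a call and 13 gained one; of the counts, 32 stayed within 1.5 times and 23 did not. The cause of these moves was not tested. The 13 positions of the shared difference became 5 under loess and under normexp with loess, 5 without spots at the ceiling (124 positions tested), 1 with the deposited table (61 tested), 1 without the dye correction and 25 with 10 RNA levels. With the dim control level subtracted they became 9 (52 tested), within 1.5 times by number, but 4 of these were lower in Landrace. Loess moved the median of all positions to log2 -0.12, against -0.01. The 4 positions that changed between months 4 and 3 became 2 under loess and under centring on the first 12 positions, 7 with the deposited table, 0 without the dye term and 0 to 0 with single arrays left out. Without spots at the ceiling they became 2, and these were the 2 of the 4 that could still be tested. The 0 positions of months 3 and 4 against months 1, 2 and 5 became 4 with the deposited table, 27 with 10 RNA levels and 0 to 8 with single arrays left out. The 0 positions without the 2 breed arrays became 3 under loess and under normexp with loess, 2 under centring on the first 12 positions, 1 with the deposited table and 8 with the dim control level subtracted. That subtraction and the fit with 10 RNA levels for months 1, 2 and 5 were added after seeing the data. No paired analysis was possible because a group holds 1 RNA sample and the labels give no replicate numbers.

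Signal limits the dim positions: 60 of the 138 were at or under the level of positions 8 to 11 in at least 1 channel of the 2 arrays.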

Other observations

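Among the first 11 positions of the blocks, which were left out of the tests and are printed alike in all 8 blocks, position 6 was brighter in Landrace on both arrays. Its mean intensity was 59036 in Landrace and 31280 in Taihu at month 3, and 41183 in Landrace and 22900 in Taihu at month 4. The dye-corrected differences were log2 0.96 and 0.87 at months 3 and 4. Of its 16 spots on the 2 arrays, 3 were at the ceiling. Position 4 was at log2 0.26 and 0.31 at months 3 and 4, and the dim position 8 at -0.77 and -0.40. What these spots hold is not stated, and they carry no test here.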
